A study of Homo sapiens with 8 samples.

Results

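The mRNAs of elastic fibres and microfibrils were examined for binding by LARP6 in human hepatic stellate cells. The set consists of 10 genes, the fibrillins FBN1 and FBN2, elastin (ELN), EMILIN1, the fibulins FBLN1, FBLN2 and FBLN5, and the microfibril-associated proteins MFAP2, MFAP4 and MFAP5. It was taken from a family of proteins, not by a rule on measured values, though earlier results of these data were known. A region belonged to a gene when its midpoint lay within the GRCh38 bounds of that gene, on the strand of the gene. Of 176826 tested clusters in 4 libraries, 1196 fell in these 10 genes. Of the peaks that the authors listed from both replicates, 14 of 1008 did so for TGFβ1 and 5 of 627 for control.

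Binding was measured by eCLIP, in which ultraviolet light links RNA to protein, the RNA is trimmed, the protein is immunoprecipitated, and the recovered fragments are sequenced beside a size-matched input. Wild-type stellate cells were either given TGFβ1 at 5 ng/ml or left as controls, which the labels name both untreated and DMSO. Each condition had 2 libraries made with an antibody to LARP6 and 2 input libraries, 8 samples in all. All were crosslinked at 254 nm with 400 mJ/cm2, and the labels do not give the source of the stellate cells. The labels do not say whether replicates were grown as separate cultures, and p-values then measure only a spread that may be technical.

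Fibrillins assemble into microfibrils, the thin filaments on which elastin is deposited and crosslinked. EMILIN1 sits where elastin meets microfibrils, fibulins bind elastin, fibrillin or the basement membrane, and the microfibril-associated proteins decorate the filaments. Stellate cells are a source of such matrix in the scarred liver. LARP6 belongs to the La-related family of RNA-binding proteins and is known to hold a stem-loop near the 5′ end of fibrillar collagen mRNAs.

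The libraries differed in how much was tested and in the level of the folds. TGFβ1 replicates 1 and 2 held 31137 and 54536 tested clusters and control replicates 1 and 2 held 51273 and 39880. The median log2 fold over input of all clusters was 0.94 and 0.82 in the TGFβ1 libraries and 0.38 and 0.85 in the control libraries. The lists hold no read counts, so the depth is unknown. Of 14 stellate cell and fibroblast markers, 12 had a cluster in all 4 libraries, all but DES and LRAT. None of 7 hepatocyte markers had one in any library. The 14 markers summed to 588 and 716 clusters with TGFβ1, against 516 and 599 in control. Of 4 bile duct cell markers, KRT7 and SOX9 had 15 and 18 clusters together with TGFβ1, against 2 and 3 in control, while KRT19 and EPCAM had none, and the part of this difference in the results was not tested. Of 5 macrophage and leukocyte markers CD68 alone had clusters, 2 and 4 with TGFβ1, against 2 and 4 in control, and of 5 endothelial markers KDR alone had any, 2 in TGFβ1 replicate 2.

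Throughout, log2 folds and −log10 p-values are the authors' deposited values for a cluster against its size-matched input. Here "enriched" means that both the log2 fold and the −log10 p of a cluster reached 3.

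RefSeq gives sequence close to the start of 6 of these genes. Stretches there that were covered by clusters in all 4 libraries are shown for FBN1 and FBLN1, at most 30 bases of each, because the site for which LARP6 is known in collagens lies near the 5′ end. Capitals mark the bases covered in every library. The sequences are from RefSeq (GRCh38.p14), written 5′ to 3′ on the strand of the RNA with T for U.
FBN1: CTGGCAGGGGCCGCCTGAAGTGGGAGCAGC
FBLN1: GGCTCGGCCGGAGCGTGGAGCCCGCGCCGC
The FBN1 stretch (chr15:48644921-48644950, minus strand) covers bases 21 to 50 after the annotated start of transcription, and 22 of its 30 bases are G or C. The FBLN1 stretch (chr22:45502895-45502924, plus strand) covers bases 13 to 42 after its start, and 26 of its 30 bases are G or C. The FBN1 clusters over the stretch reached log2 folds of 1.73 and 1.95 in TGFβ1 replicates 1 and 2, against 0.56 and 1.10 in control replicates 1 and 2. The FBLN1 clusters had 0.41 and 0.72 in the TGFβ1 libraries, against -0.44 and -0.26 in the control libraries. The clusters compared differ in length. Downstream, over bases that the TGFβ1 clusters also cover, control replicates 1 and 2 had second FBLN1 clusters at -1.05 and 0.41. None of these clusters was enriched.

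FBN1, the gene of fibrillin-1, the main component of microfibrils, held most of the enriched clusters of the set. It spans 237397 nt on the minus strand of chromosome 15 (48408313 to 48645709). Tested clusters numbered 118 and 142 in TGFβ1 replicates 1 and 2, against 149 and 141 in control replicates 1 and 2, which placed FBN1 among the 14 genes with the most clusters in each library. Of these, 6 and 11 were enriched in the TGFβ1 libraries, against 3 and 7 in the control libraries. That is 5.09% and 7.75% of the FBN1 clusters with TGFβ1, against 2.01% and 4.97% in control. Of all tested clusters, 2.69% and 3.64% were enriched in the TGFβ1 libraries, against 1.21% and 2.09% in the control libraries. The share in FBN1 was thus above that of its own library in all 4 libraries, and TGFβ1 replicate 1 exceeded control replicate 2 by little. In control replicate 1 this rests on 3 enriched clusters. Enriched clusters that abut were counted apart and are not independent.

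The authors' lists held 9 FBN1 peaks for TGFβ1 and 5 for control. By this count FBN1 stood at rank 7 of 378 protein-coding genes in the TGFβ1 list, and at rank 12 of 213 in the control list. The count is not scaled to transcript length, and peaks that abut were counted apart. By its highest peak it stood lower, at rank 68 with a log2 fold of 5.80 in the TGFβ1 list and at rank 102 with 4.30 in the control list. For scale, the highest listed peaks of COL1A1, COL1A2 and COL3A1, fibrillar collagen targets of LARP6, had 7.69, 7.88 and 9.31 in the TGFβ1 list, against 7.92, 8.02 and 9.17 in the control list.

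**Figure D1:**
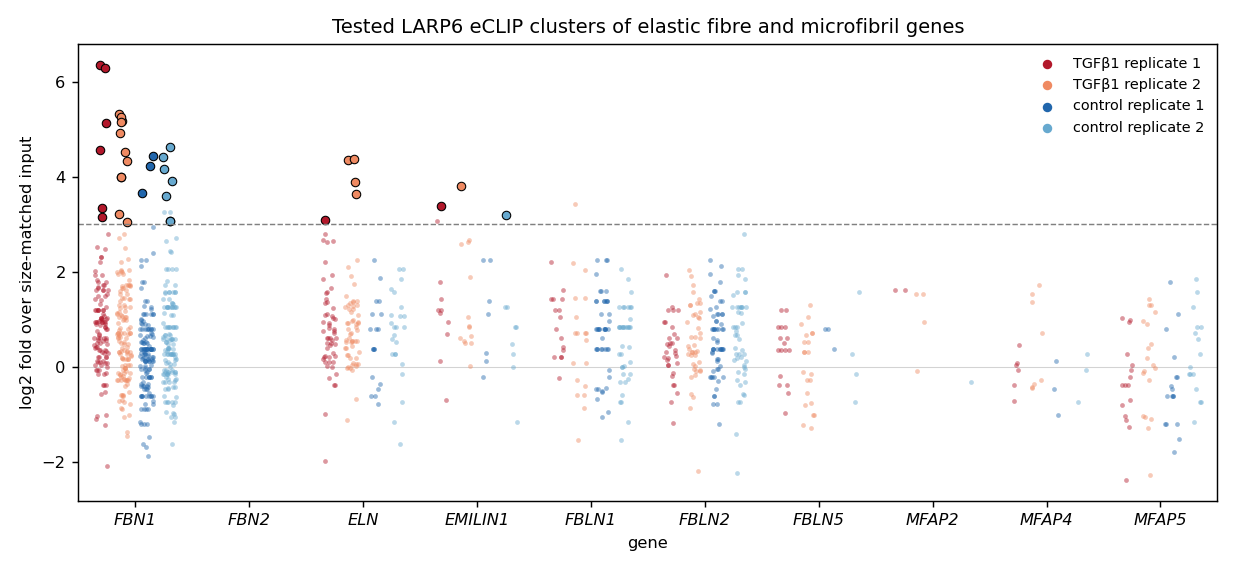
Log2 fold over size-matched input (vertical axis) of every tested cluster in each of the 10 genes (horizontal axis), one point per cluster, coloured by library. Outlined points are enriched and the dashed line marks a log2 fold of 3. Enriched clusters occur in FBN1, ELN and EMILIN1, and FBN2 has no point.

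Merged where at most 20 nt apart, the FBN1 peaks of both lists made 4 sites, numbered here from the 5′ end. The annotation used gives gene bounds without exons or untranslated regions, so their place in the transcript is not given. Sites 3 and 4 had the highest mean folds of the 4 in both conditions. Site 4 (48415680 to 48415768) lay 7367 nt from the annotated 3′ end. Its highest cluster had log2 folds of 6.36 and 5.33 in TGFβ1 replicates 1 and 2, against 4.43 and 4.16 in control replicates 1 and 2. Both TGFβ1 values lay above both control values, and the cluster was enriched in every library. The means were 5.85 ± 0.73 with TGFβ1 and 4.30 ± 0.19 in control (SD, n = 2 each). The −log10 p was 24.7 and 400, the cap of the scale, in the TGFβ1 libraries, against 25.9 and 41.1 in the control libraries.

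Site 3 (48420686 to 48420709) lay 12373 nt from the 3′ end. It had 6.29 and 5.16 in the TGFβ1 libraries, against 3.67 and 4.41 in the control libraries, again with no overlap of the groups and with enrichment in all 4 libraries. The means were 5.72 ± 0.80 with TGFβ1 and 4.04 ± 0.53 in control (SD, n = 2 each). This separation rests on which cluster stands for the site. With the cluster of longest overlap in place of the highest one, site 3 had 3.34 and 4.53 in the TGFβ1 libraries, against 3.67 and 3.91 in the control libraries, and the groups overlapped. At site 4 the same choice gave 4.56 and 5.33 with TGFβ1, against 4.43 and 4.16 in control, and the groups did not overlap. The nearest values, 4.56 in TGFβ1 replicate 1 and 4.43 in control replicate 1, were close. They differed by less than the medians of these libraries, 0.94 and 0.38, so this separation does not hold relative to the medians. That of the highest cluster does, with 5.42 and 4.51 against 4.05 and 3.31.

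Site 2 (48441719 to 48441792) was in both lists, and its groups overlapped. It had 3.16 and 4.32 in the TGFβ1 libraries, against 2.40 and 4.62 in the control libraries. In control replicate 1 the cluster was under the fold limit, although the control list holds a peak at 4.07 there. Site 1 (48613009 to 48613076), 32633 nt from the 5′ end of the gene, was in the TGFβ1 list alone. Its values were 2.79 and 4.00 in the TGFβ1 libraries, against 2.94 and 2.41 in the control libraries, so TGFβ1 replicate 1 lay below control replicate 1. The site was thus in one list alone while its libraries overlapped.

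Enriched FBN1 clusters outside these sites lay at 3 further places between sites 2 and 3, which lay 207791, 218023 and 219922 nt from the 5′ end. At 48437897 to 48437918 the log2 fold was 2.01 and 3.22 in TGFβ1 replicates 1 and 2, against 0.93 and 3.07 in control replicates 1 and 2. At 48427604 to 48427686 it was 1.69 and 2.80 with TGFβ1, against 1.65 and 3.07 in control, and at 48425737 to 48425787 it was 2.53 and 3.05, against 1.02 and 2.65. Each of the 3 places was enriched in replicate 2 of at least 1 condition and in no replicate 1.

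**Figure D2:**
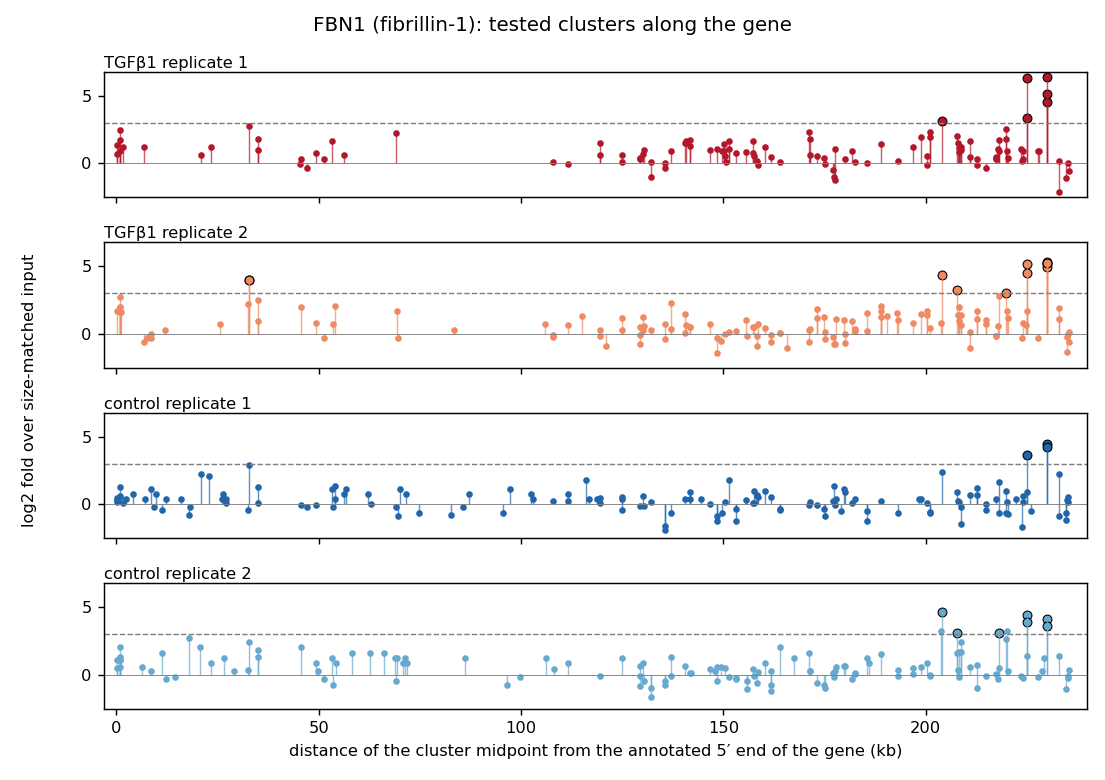
Tested clusters of FBN1 by the distance in kb between their midpoint and the 5′ end of the gene (horizontal axis) and their log2 fold over input (vertical axis), one panel per library. Outlined points are enriched and the dashed line marks a log2 fold of 3. The highest points of the TGFβ1 libraries and of control replicate 1 stand at the sites 225000 and 229941 nt from the 5′ end, and a lower run stands at the 5′ end itself.

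The 5′ end of FBN1 was covered without reaching the fold limit. The start given by RefSeq (48644970), from which the next distances run, lies inside the bound of the gene used above. In the first 300 nt after it the highest cluster had a log2 fold of 2.49 and 2.72 in TGFβ1 replicates 1 and 2, against 1.29 and 2.07 in control replicates 1 and 2. It began 170 nt from the start in 3 libraries and 172 nt in control replicate 1. Its −log10 p was 15.2 and 28.2 with TGFβ1, against 8.51 in control replicate 2 and a value just under the limit of 3 in control replicate 1. All but the last passed the limit for p and none passed that for fold. Both TGFβ1 values lay above both control values. Among genes with a cluster in this window, 5.5% of 2565 and 7.1% of 3626 had a higher one than FBN1 in the TGFβ1 libraries, against 18% of 2385 and 7.4% of 2564 in the control libraries. The 30 bases printed above lie upstream of this highest cluster. All 4 libraries also had FBN1 clusters upstream of the RefSeq start, near the bound of the gene. The highest of these had 1.33 and 1.67 with TGFβ1, against 0.49 and 1.13 in control, and none was enriched.

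ELN encodes tropoelastin, the soluble precursor that is crosslinked into the elastic core. It had peaks in the TGFβ1 list alone, 4 of them, which formed 1 site on the plus strand of chromosome 7 (74069072 to 74069165), 742 nt from the annotated 3′ end of the gene. The highest cluster at the site had log2 folds of 3.08 and 4.38 in TGFβ1 replicates 1 and 2, against 2.25 and 1.63 in control replicates 1 and 2. Both TGFβ1 libraries were above both control libraries and both were enriched, while neither control library was. The −log10 p there was 27.1 and 79.8 with TGFβ1, against 1.63 and 1.91 in control. The 2.25 of control replicate 1 is a value that 254 clusters of that library share, as low folds take few values. The means were 3.73 ± 0.92 with TGFβ1 and 1.94 ± 0.44 in control (SD, n = 2 each). Relative to the median of each library the site had 2.14 and 3.56 with TGFβ1, against 1.87 and 0.78 in control, and the groups did not overlap.

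The number of ELN clusters moved with the site. It was 55 and 60 in the TGFβ1 libraries, against 19 and 24 in the control libraries. Scaled to 10000 tested clusters of a library this was 17.7 and 11 with TGFβ1, against 3.71 and 6.02 in control, 2.95 times as many with TGFβ1. The control libraries thus had fewer places in ELN at which enrichment was tested, though each tested the site itself. The part of the cluster number in the result was not tested. All enriched ELN clusters lay at the site. In the last 1500 nt of the gene there were 9 and 10 ELN clusters with TGFβ1, against 5 and 5 in control, with median log2 folds of 1.37 and 2.18, against 1.38 and 0.92. FBN1 had no cluster in its last 1500 nt in any library. ELN-AS1, an RNA named as antisense and annotated within the bounds of ELN away from the site, spans 5 and 6 of the ELN clusters with TGFβ1, against 2 and 2 in control. These are counts by position. All the clusters lay on the plus strand taken for ELN, and the strand of ELN-AS1 was not compared. The ELN clusters at the 5′ end had log2 folds of 0.49 and -0.03 with TGFβ1, against -0.79 and 0.52 in control.

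**Figure D3:**
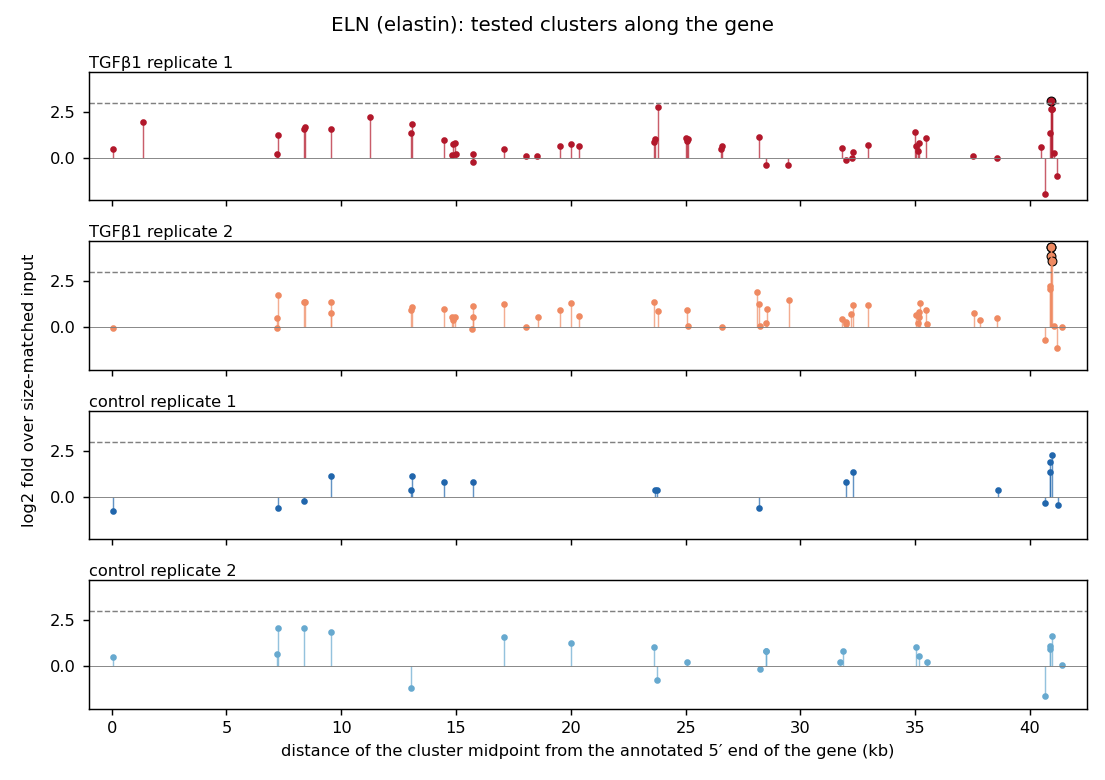
Tested clusters of ELN by the distance in kb between their midpoint and the 5′ end of the gene (horizontal axis) and their log2 fold over input (vertical axis), one panel per library. Outlined points are enriched and the dashed line marks a log2 fold of 3. The TGFβ1 panels hold 55 and 60 clusters with enriched ones at the 3′ site alone, and the control panels hold 19 and 24 with none enriched.

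EMILIN1 encodes a glycoprotein of elastic fibres that also restrains the processing of the TGFβ precursor. It had 1 peak in the TGFβ1 list and none in the control list. The site (chromosome 2, 27082535 to 27082622, plus strand) lay 3920 nt from the 5′ end and 3781 nt from the 3′ end. It had log2 folds of 3.39 and 3.81 in TGFβ1 replicates 1 and 2, against 2.25 and 3.20 in control replicates 1 and 2. The groups did not overlap, but control replicate 2 was enriched too, with a −log10 p of 6.11. The 2.25 of control replicate 1 is again the value that 254 clusters of that library share. The nearest values, 3.39 with TGFβ1 and 3.20 in control, differed by less than the replicates of either condition did. Tested clusters in EMILIN1 numbered 11 and 14 with TGFβ1, against 7 and 9 in control.

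Across the set, 3 of the 9 members tested in both TGFβ1 libraries had a listed peak, FBN1, ELN and EMILIN1, where 7.04% of 5372 protein-coding genes tested in both libraries did. In control this was 1 of 8, FBN1, where 3.88% of 5489 genes did. With counts this small the shares in the set rest on 1 to 3 genes, and the set was chosen with earlier results of these data known. Of 4321 genes tested in all 4 libraries, 4.49% were in the TGFβ1 list alone, as ELN and EMILIN1 were, 4.24% were in both lists, as FBN1 was, and 0.694% were in the control list alone, as no member was. Without control replicate 1, when the enriched clusters of control replicate 2 stood for the condition, EMILIN1 joined FBN1, which made 2 members in control. At a log2 fold limit of 4, FBN1 alone remained in the TGFβ1 list.

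The folds at the 6 sites were set beside those of all sites. In 4 of the 6 (FBN1 sites 3 and 4, ELN and EMILIN1) both TGFβ1 libraries lay above both control libraries, and in the other 2 the groups overlapped. With the cluster of longest overlap in place of the highest one, FBN1 site 3 overlapped as well. Of 597 sites merged from both lists with a cluster in all 4 libraries, 47.9% had TGFβ1 above control without overlap and 10.4% the reverse. The mean TGFβ1 minus control difference was 0.72, 0.23, 1.68 and 1.55 at FBN1 sites 1 to 4, 1.79 at the ELN site and 0.87 at the EMILIN1 site, where the median over all 597 sites was 0.91. These differences are of the highest cluster. With the cluster of longest overlap the means at FBN1 site 3 were 3.94 with TGFβ1 and 3.79 in control. At FBN1 site 4 they were 4.95 and 4.30, and at the ELN site 3.36 and 1.94. Separation towards TGFβ1 was thus common among listed sites. The sites were listed by these same folds, so no test was made.

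**Figure D4:**
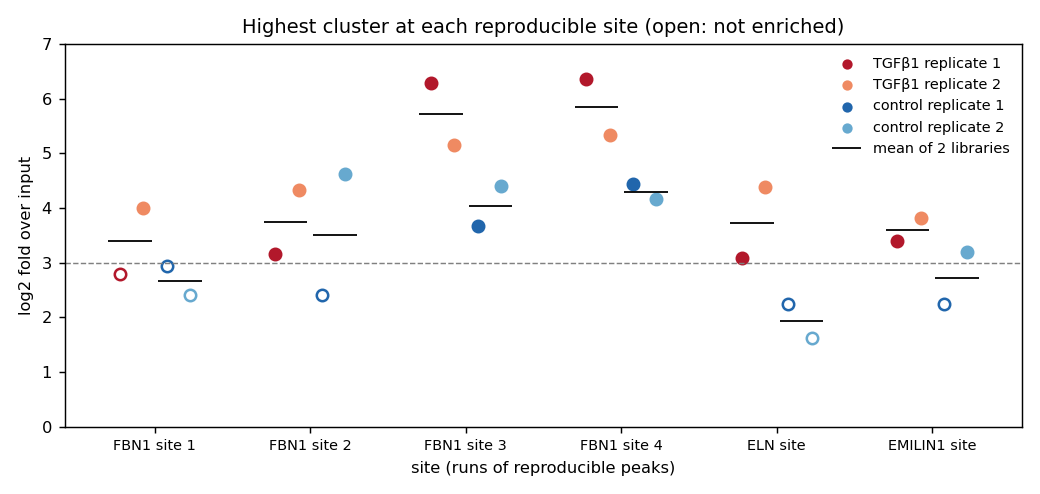
Log2 fold over input (vertical axis) of the highest cluster at each of the 6 reproducible sites (horizontal axis), one point per library, with lines at the mean of 2 libraries and a dashed line at 3. Filled points are enriched and open points are not. FBN1 sites 3 and 4, ELN and EMILIN1 have both TGFβ1 points above both control points, and FBN1 sites 1 and 2 do not.

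Of the 14 TGFβ1 peaks in members, 7 overlapped a control peak by at least 1 nt (50.0%, 95% Wilson interval 26.8 to 73.2), and all 7 were in FBN1. Among the other 994 TGFβ1 peaks 61.2% did. Of the 5 control peaks in members, all overlapped a TGFβ1 peak, against 79.4% of the other 622. Without TGFβ1 replicate 2, when the 8 enriched clusters of TGFβ1 replicate 1 stood for the condition, 75.0% overlapped. Neighbouring peaks are parts of 1 site and are not independent, and the interval covers counting error only.

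The share of enriched clusters over all 10 genes was 2.93% and 4.83% in TGFβ1 replicates 1 and 2, against 0.98% and 2.80% in control replicates 1 and 2. In the remaining clusters of the same libraries it was 2.69% and 3.63% with TGFβ1, against 1.21% and 2.09% in control. The set exceeded the rest of the series in 3 libraries and lay below it in control replicate 1. The 95% Wilson intervals of its shares were 1.5 to 5.7 and 3.0 to 7.7 in TGFβ1 replicates 1 and 2. In control replicates 1 and 2 they were 0.3 to 2.8 and 1.4 to 5.4. These intervals cover counting error only, and enriched clusters that abut are not independent. Each interval contained the share of the remaining clusters, so the set was not set apart from the rest in any library. The means were 3.88% ± 1.35 with TGFβ1 and 1.89% ± 1.28 in control (SD, n = 2 each), a difference of 1.99 percentage points (two-sided exact permutation test, p = 0.333, the smallest that 2 against 2 allows). The difference was 1.04 without TGFβ1 replicate 2 and 1.08 without control replicate 1. The remaining clusters also had higher shares in both TGFβ1 libraries than in both control libraries, so this direction is not particular to the set. FBN1 held 42.9% to 49.3% of the clusters of the set. Without it, 2 of 155 and 5 of 189 clusters were enriched in the TGFβ1 libraries, against 0 of 157, which allows a share of up to 1.91%, and 1 of 145 in the control libraries.

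No fibulin had an enriched cluster. FBLN1, which encodes a fibulin of elastic fibres and basement membranes, had 16 and 19 tested clusters with TGFβ1, against 46 and 39 in control. Its highest log2 fold was 2.20 and 3.42 in the TGFβ1 libraries, against 2.25 and 2.07 in the control libraries. The cluster at 3.42 had a −log10 p of 2.30, short of the limit. FBLN2, which encodes a fibulin that binds fibrillin and basement membrane proteins, had 32 and 43 clusters with TGFβ1, against 62 and 49 in control. Its highest folds were 1.94 and 2.03 with TGFβ1, against 2.25 and 2.81 in control, all under the limit. FBLN5, which encodes a fibulin needed in mice for the assembly of elastic fibres, had 17 and 22 clusters with TGFβ1, against 3 and 4 in control, and highest folds of 1.20 and 1.31 with TGFβ1, against 0.79 and 1.58 in control.

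No microfibril-associated gene had an enriched cluster. MFAP5 encodes a small glycoprotein that binds fibrillin. It had 16 and 19 clusters with TGFβ1, against 17 and 16 in control, and its median log2 fold was -0.38 and 0.05 with TGFβ1, against -0.62 and 0.13 in control. In each library this was at least 0.72 below the median of all clusters. Its highest folds were 1.03 and 1.42 with TGFβ1, against 1.79 and 1.85 in control. MFAP4, which encodes a fibrinogen-related protein of microfibrils, had 6 and 8 clusters with TGFβ1, against 3 and 3 in control, with medians of -0.01 and 0.22, against -0.47 and -0.06, each below the median of its library. Its highest folds were 0.47 and 1.72 with TGFβ1, against 0.12 and 0.26 in control. MFAP2, which encodes another microfibril-associated glycoprotein, had 2 and 4 clusters with TGFβ1, against 0 and 1 in control, too few for a level. FBN2, the gene of the fibrillin that is prominent in developing tissue, had no tested cluster in any library. As the depth is unknown, no limit on its binding can be given.

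Low folds take few values. The highest fold of ELN, EMILIN1, FBLN1 and FBLN2 in control replicate 1 was the same number, 2.25, which 254 clusters of that library share. The highest of ELN and FBLN1 in control replicate 2, 2.07, was shared by 619 clusters. Differences between such values are not read further.

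The number of tested clusters itself differed between conditions for several members. A cluster is tested where immunoprecipitated reads pile up, so its number moves with the level of the mRNA, with binding and with depth, which cannot be told apart here. In such bulk material fewer producing cells and less RNA per cell cannot be told apart either. Scaled to 10000 clusters, the libraries of both conditions did not overlap for 7 genes. In 5 of them TGFβ1 was higher, namely ELN, EMILIN1, FBLN5, MFAP2 and MFAP4, and in FBLN1 and FBLN2 it was lower. Among 2289 protein-coding genes with a mean of at least 5 clusters a library, 32.7% were higher with TGFβ1 without overlap and 26.3% were lower. Of the 8 members with such a mean, 4 were higher and 2 lower, counts too small to set apart from those shares.

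The sizes were larger for some members than for most genes. FBLN5 had 5.46 and 4.03 clusters per 10000 with TGFβ1, against 0.59 and 1.00 in control, 5.98 times as many, which was rank 52 of the 2289 genes. ELN, at 2.95 times, was at rank 138, and MFAP4, at 2.54 times and just at the limit of 5 clusters, was at rank 191. FBLN1 had 5.14 and 3.48 with TGFβ1, against 8.97 and 9.78 in control, a ratio of 0.46, at rank 1975. Differences of at least 2-fold without overlap were found in 13.8% of genes towards TGFβ1 and in 15.1% towards control. FBLN2 had 10.3 and 7.88, against 12.1 and 12.3, a ratio of 0.745. FBN1 had 37.9 and 26.0 with TGFβ1, against 29.1 and 35.4 in control, and MFAP5 had 5.14 and 3.48, against 3.32 and 4.01, so both overlapped. With 2 libraries a condition the exact permutation test cannot fall below a two-sided p of 0.333, which the 7 genes without overlap all reached.

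**Figure D5:**
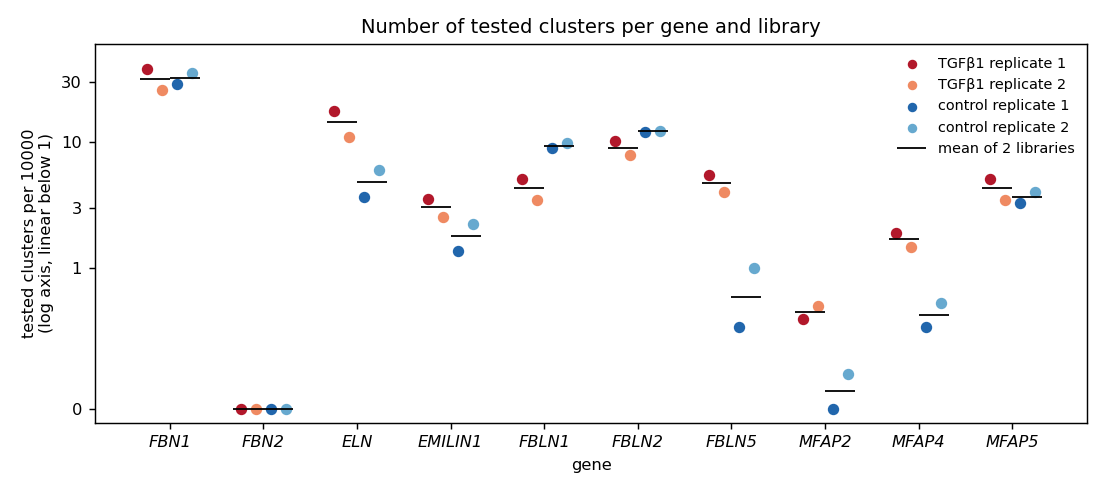
Tested clusters of each gene per 10000 tested clusters of the library (vertical axis, logarithmic above 1 and linear below), one point per library and a line at the mean of 2 libraries. ELN, EMILIN1, FBLN5, MFAP2 and MFAP4 have both TGFβ1 points above both control points, FBLN1 and FBLN2 have both below, and FBN1 and MFAP5 overlap.

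Outside the 10 genes, a list of 33 further genes was examined. It holds genes of elastic fibres and microfibrils and also other matrix, enzyme and chaperone genes, among them FN1, BGN, DCN, VCAN, FKBP10, FURIN and GLB1. Of these, 22 were tested in both TGFβ1 libraries and 23 in both control libraries. In the TGFβ1 list 6 had a peak, where 7.04% of all protein-coding genes tested in both libraries did, and in the control list 4 had one, all of them among the 6, where 3.88% did. The 33 genes were chosen with earlier results of these data known, so these counts cannot be read as an excess over those shares. LTBP1 and LTBP3, which tether latent TGFβ to fibrillin microfibrils, were in both lists, with highest folds of 7.97 and 7.36 in the TGFβ1 list, against 5.46 and 5.66 in the control list. LOXL2, a crosslinking oxidase, had 4.45 in the TGFβ1 list, against 3.8 in the control list. GLB1, whose splice form is a chaperone of tropoelastin, had 6.10 in the TGFβ1 list, against 3.31 in the control list. HMCN1, a large fibulin relative, and FURIN, the protease that trims profibrillin, were in the TGFβ1 list alone at 3.42 and 4.49. HMCN1 also had an enriched cluster in control replicate 2, at 3.65. EMILIN2, EFEMP1 and EFEMP2, the last 2 being the genes of fibulin-3 and fibulin-4, had clusters in all 4 libraries and no listed peak.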

How the data were processed

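The files used were cluster lists of the 4 immunoprecipitated libraries and a list per condition that the authors joined over its replicates. The input libraries enter only through the deposited folds. Per the submitters' processing notes, cutadapt, STAR, UMI-tools and GRCh38 were used. Which peak caller, input normalisation and joining rule were applied is not given in the sources used here. No file has a header. By their ranges, the deposited values were taken to be the authors' log2 fold of each cluster against size-matched input, and the authors' −log10 p-value, which is capped at 400.

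Gene bounds came from a RefSeq table (GRCh38.p14). Strand came from the RefSeq promoter table for 6 members and from the clusters, all on 1 strand, for ELN, EMILIN1, MFAP4 and MFAP5. A cluster opposite to MFAP2 was left out. Starts came from the promoter table or, where it has no entry, from the gene bounds. Peaks within 20 nt were merged into sites, and the highest fold among overlapping clusters stood for a library. The text names all 10 members, the genes of the further list with a listed peak, and COL1A1, COL1A2 and COL3A1; EMILIN2, EFEMP1, EFEMP2 and the genes of the closing observations were chosen after their values were seen. The members and lists were chosen with earlier results of these data known. Library values were compared by exact permutation. Alternatives were other limits, an own list, assignment by any overlap, other overlap and site rules, each replicate left out, the replicate number as a block and, chosen after seeing the data, folds relative to the library median. The code was tested on simulated data. Versions were matplotlib 3.10.9, SciPy 1.17.1, pandas 2.3.3, NumPy 2.4.6 and Python 3.11.15.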

Additional observations from a re-analysis of the deposited data

Results flagged for a closer look

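At the 30 bases near the start of FBLN1, the cluster lay above its input in both TGFβ1 libraries, with log2 folds of 0.41 and 0.72, and below it in both control libraries, with -0.44 and -0.26. Opposite signs in the conditions drew attention to it. The clusters are not alike, since those of TGFβ1 reach further downstream, where control replicates 1 and 2 have second clusters at -1.05 and 0.41. The difference was not tested, no cluster was enriched, and all 4 values lay below the median of all clusters of their library.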

How the results depend on the processing

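The difference in enriched share kept its direction under every alternative run, from 1.04 to 2.95 percentage points with a replicate left out (exact permutation p of 0.333 or 0.667). With the replicate block it stayed at 1.99 (exact permutation, p = 0.5), and relative to the library median it was 1.36. A log2 fold limit of 2 moved it most, to 4.05, and a limit of 4 gave 1.39. The remaining clusters also had higher shares with TGFβ1, 2.69% and 3.63%, against 1.21% and 2.09% in control. The direction is thus not particular to the set. The samples share only a replicate number. At a log2 fold limit of 4 the TGFβ1 list held 1 member with 6 peaks and the control list 3 member peaks. In an own list of enriched replicate 1 clusters that overlap one of replicate 2, member peaks numbered 8 with TGFβ1 and 3 in control. With a replicate left out, the enriched clusters of the remaining library stood for the condition in place of the list. Member peaks then ranged from 8 (without TGFβ1 replicate 2) to 16 with TGFβ1. In control they ranged from 3 (without control replicate 2) to 8 (without control replicate 1). They lay in 3 members with TGFβ1 and in 1 to 2 in control. The share overlapping a control peak ranged from 42.9% to 75.0%, the last without TGFβ1 replicate 2. Mean folds at the sites moved by more than the SD of the replicates in 2 of 12 cases with the cluster of longest overlap. With the library median subtracted they did so in 9 of 12. Of these means 0 changed sign. Under the subtraction none could, as the lowest mean was 1.94 and the highest median 0.94. Leaving out 1 of 2 replicates cannot move a mean by more than that SD, so it says nothing of stability there. The causes were not tested. Merging at 100 nt left 6 sites. With 2 libraries a condition and unknown depth, small differences cannot be judged.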

Other observations

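Other genes of the matrix around microfibrils also differed in the number of tested clusters between conditions, and are given as values chosen after they were seen. LTBP2, a relative of the latent TGFβ binding proteins that binds fibrillin, had 85 and 85 clusters with TGFβ1, against 25 and 26 in control, and no enriched cluster. VCAN, the gene of a proteoglycan that binds fibrillin, had 64 and 77, against 39 and 32, and none enriched. EFEMP1 had 16 and 21, against 49 and 41, a difference in the same direction as in FBLN1. THSD4, which encodes an ADAMTS-like protein of microfibrils, had 1 and 0, against 10 and 9. These counts are not scaled to the clusters of a library. On scaled counts, 32.7% of 2289 protein-coding genes were higher with TGFβ1 without overlap, and 26.3% were lower. Differences of at least 2-fold without overlap were found in 13.8% towards TGFβ1 and in 15.1% towards control. Such differences are thus common and are not particular to these genes.

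LOXL1, the oxidase that crosslinks elastin, had highest log2 folds of 2.20 and 2.83 with TGFβ1, against 1.79 and 4.43 in control, and the last alone was enriched.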
